A study of Mus musculus with 16 samples.

Results

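Oligodendrocytes are the cells that wrap axons of the brain and spinal cord in myelin. The 8 genes described here mark their lineage from dividing progenitor to myelinating cell: the transcription factors Sox10, Olig1 and Olig2, the progenitor surface proteins Pdgfra and Cspg4, and the myelin proteins Mbp, Cnp and Mag. They were taken as a list of names, and their probes were found by matching each probe's transcript accession to a RefSeq gene symbol. All 8 genes had a probe, 10 probes in all, and all 8 were among the 26477 genes and features tested.

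The samples were whole-brain RNA of 16 C57BL/6 mice at postnatal day 1, 1 mouse per one-colour array, in a study of how far the nucleus of a dried sperm cell withstands extreme conditions. The 4 groups of 4 pups differed in the sperm of the father. The irradiated group came from freeze-dried sperm exposed to 5 Gy of X-rays, the heated group from freeze-dried sperm kept at 95 °C for 1 h, the freeze-dried group from freeze-dried sperm with neither exposure, and the fresh group from fresh sperm. Freeze-drying was thus shared by the first 3 groups, and the pups themselves received no treatment. The labels give each pup a number and do not say which pups were littermates, nor how the eggs were fertilised. P-values measure the spread between these animals and would be too small if littermates are more alike than other pups.

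Progenitors of this lineage divide and migrate in response to platelet-derived growth factor A, which they sense through Pdgfra. Olig2 and Sox10 direct them towards the oligodendrocyte fate, and on leaving the cell cycle they lose Pdgfra and Cspg4 and start to make myelin proteins. In the mouse, myelin forms around birth in the spinal cord and hindbrain first and reaches the forebrain later, so a newborn brain holds many progenitors and few myelinating cells.

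A level is the log2 of a probe's signal over its array's 75th percentile, and the levels of a group are listed for its arrays 1 to 4 in turn. They describe how 1 probe varies between arrays, and levels of different probes are not set against each other. A difference between groups is the mean of the first-named group minus that of the second on the log2 scale with its standard error (SE), from a limma fit of all 16 arrays, and a gene is said to change, rise or fall where its p, adjusted by Benjamini-Hochberg over the 26477 genes and features, is under 0.05. In whole brain, fewer cells of the lineage and less RNA per cell cannot be told apart.

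The arrays lay on 2 slides. Slide 1 held irradiated 1 and 2, all 4 freeze-dried and fresh 1 and 2, and slide 2 held irradiated 3 and 4, all 4 heated and fresh 3 and 4, so the heated and freeze-dried groups shared no slide. The share of spots well above background lay between 59.9% and 66.1%. Of the 8 neuron markers, 7 or 8 were well above background on every array, as were all 10 astrocyte markers and 1 probe of each of the 8 lineage genes. Heated 2, heated 4, freeze-dried 2 and fresh 2 had the lowest means over 12 Hox genes of the hindbrain and spinal cord. Their means were -6.38 for heated 2, -7.18 for heated 4, -4.47 for freeze-dried 2 and -6.88 for fresh 2, against -2.80 to -1.07 on the other 12 arrays. On heated 2, heated 4 and fresh 2, only 1 of the 12 Hox genes was well above background, and on freeze-dried 2, 7 were.

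The upstream sequences of 3 lineage genes are printed here for the genes that the results turn on: Pdgfra, which rose in heated brains, Cspg4, the other progenitor surface protein, and Mag, whose signal varied most within groups when each gene is taken by its brightest probe. Each run is the 250 bases upstream of the gene's start in RefSeq on build GRCm38.p6, written 5′ to 3′ on the strand of the gene; where several starts were listed, as for Mag, the outermost was used. Of the 8 genes, 5 had an entry in the table of upstream sequences. Capitals mark matches to ACAAT or ACAAAG, short core motifs bound by Sox proteins, and CAGCTG, an E-box core of the kind bound by basic helix-loop-helix factors such as Olig2, was searched as well, each on both strands.
Pdgfra, chr5:75152001-75152250, strand +: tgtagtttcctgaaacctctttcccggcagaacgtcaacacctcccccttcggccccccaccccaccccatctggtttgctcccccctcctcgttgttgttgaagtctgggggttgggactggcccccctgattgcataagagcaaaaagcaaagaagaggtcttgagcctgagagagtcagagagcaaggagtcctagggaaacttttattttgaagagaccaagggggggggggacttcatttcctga
Cspg4, chr9:56864854-56865103, strand +: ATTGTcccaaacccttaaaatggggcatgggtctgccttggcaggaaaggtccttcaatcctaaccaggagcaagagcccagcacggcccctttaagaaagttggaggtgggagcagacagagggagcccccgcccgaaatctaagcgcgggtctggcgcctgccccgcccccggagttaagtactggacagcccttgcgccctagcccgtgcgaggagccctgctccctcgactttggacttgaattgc
Mag, chr7:30914923-30915172, strand −: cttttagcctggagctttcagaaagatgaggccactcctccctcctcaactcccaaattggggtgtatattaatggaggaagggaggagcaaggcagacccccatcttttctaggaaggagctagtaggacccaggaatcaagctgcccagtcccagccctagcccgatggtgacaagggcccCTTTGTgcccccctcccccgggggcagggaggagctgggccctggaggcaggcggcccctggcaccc
The Cspg4 window held 1 match to ACAAT, read on the other strand as ATTGT. The Mag window held 1 match to ACAAAG, read on the other strand as CTTTGT. The Pdgfra window held 0 matches to any of the 3 motifs, no window held CAGCTG, and no match overlapped another. Among 32807 RefSeq windows of this length, 27.7% held ACAAT, 16.5% held ACAAAG and 13.0% held CAGCTG on either strand, so such matches are common and describe the letters only.

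Of the 8 genes, Pdgfra alone changed, and it rose in the heated group against both the freeze-dried group, where 3.86% of all genes and features changed, and the fresh group, where 2.93% did. Both calls were lost with slide as a block, which gave 0.19 (adjusted p = 0.723) against the freeze-dried group, with which the heated group shared no slide, and 0.28 (adjusted p = 0.117) against the fresh group. With that block 0% of all genes and features passed against the freeze-dried group, so the loss there was not particular to Pdgfra. Against the fresh group 1.53% passed. Under normexp background correction, in the deposited value table and with no filter on dim probes, 0 of 8 genes passed in either comparison. Of all genes and features, 4.86%, 0% and 1.34% passed there against the freeze-dried group, and 2%, 1.29% and 0.585% against the fresh group. Pdgfra passed in neither comparison of the irradiated group with unexposed sperm, nor between the freeze-dried and fresh groups. The other 7 genes passed in 0 of 6 comparisons, though Sox10 passed in 3 of 27 alternative fits of heated against freeze-dried brains. Sox10 was high in the same direction in both exposed groups without passing. Mag varied more between pups of the heated group than its mean differed between any 2 groups.

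**Figure D1:**
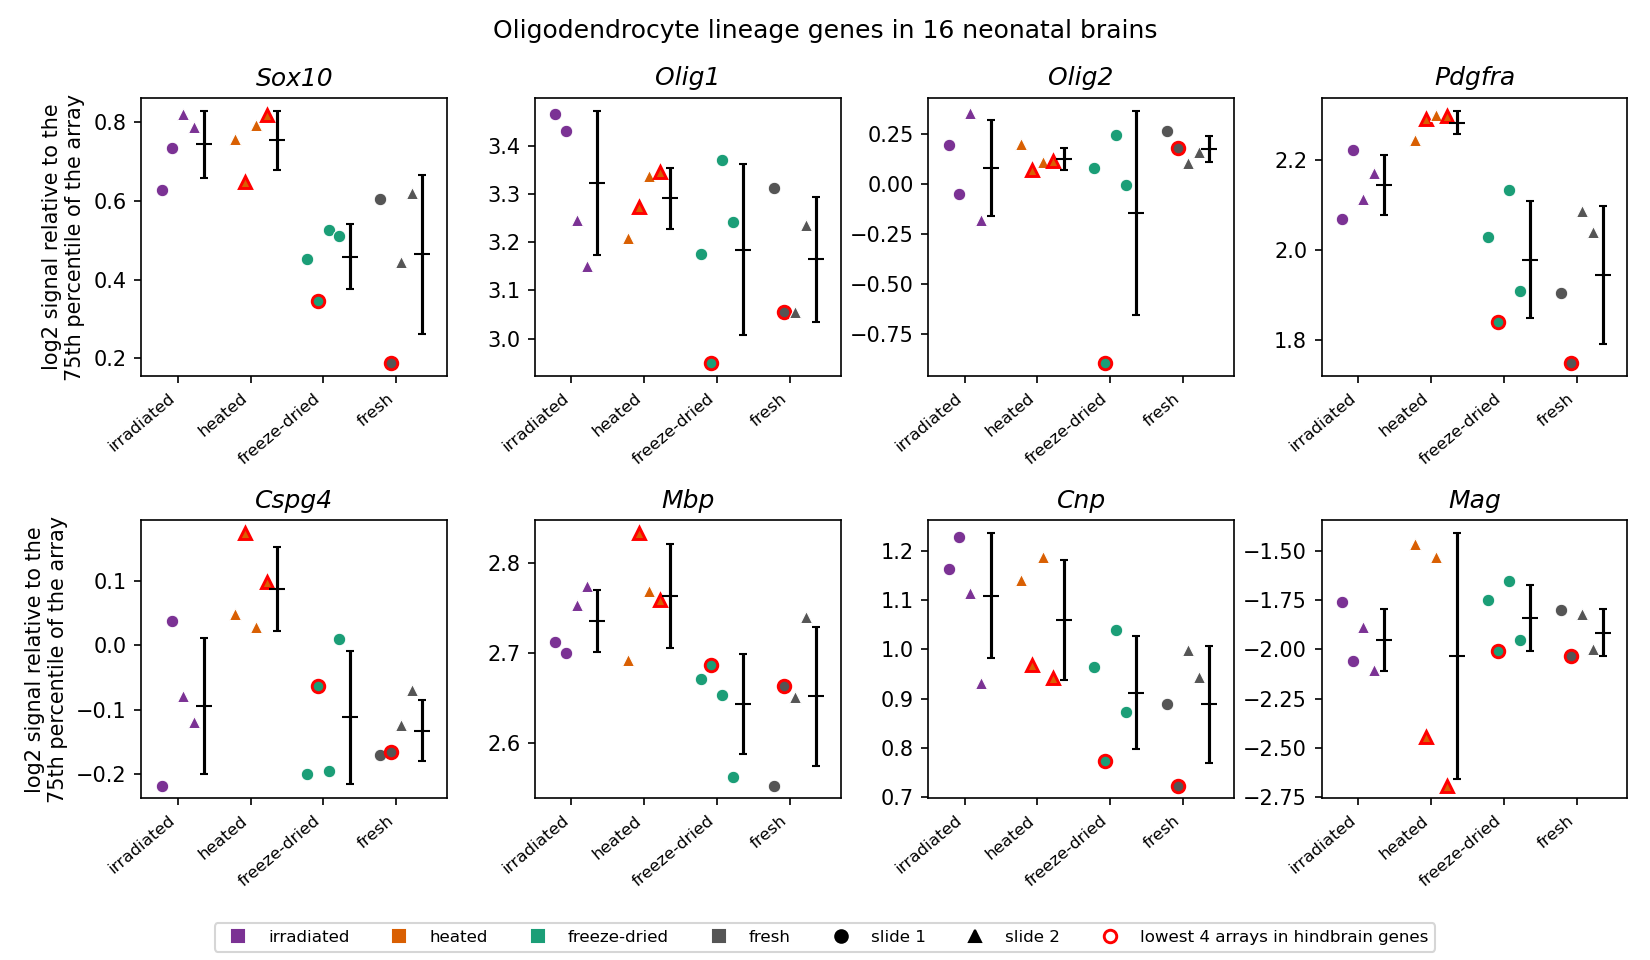
Each panel plots the log2 signal of 1 gene, relative to the 75th percentile of the array, in 16 brains, grouped as irradiated, heated, freeze-dried and fresh, with the mean and SD of each group as a black bar (n = 4). Circles are slide 1 and triangles slide 2, and a red outline marks the 4 arrays lowest in hindbrain genes; the heated Pdgfra values, 2.24 to 2.30, lie above all other Pdgfra values, and the heated Mag values split into a high and a low pair.

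Sox10, the transcription factor that oligodendrocytes need to mature and to switch on myelin genes, had levels of 0.63, 0.74, 0.82 and 0.79 in the irradiated group and 0.76, 0.65, 0.79 and 0.82 in the heated group. It had 0.45, 0.35, 0.53 and 0.51 in the freeze-dried group and 0.61, 0.19, 0.44 and 0.62 in the fresh group. Every irradiated and every heated value thus lay above every freeze-dried and every fresh value, while the irradiated and heated groups overlapped, as did the freeze-dried and fresh groups. The means were 0.74 ± 0.08 (irradiated), 0.75 ± 0.08 (heated), 0.46 ± 0.08 (freeze-dried) and 0.46 ± 0.20 (fresh; SD, n = 4 each). No Sox10 difference passed the limma test: 0.28 (SE 0.09, adjusted p = 0.685) for irradiated against freeze-dried and 0.29 (SE 0.09, adjusted p = 0.0697) for heated against freeze-dried. Against the fresh group the differences were 0.28 (adjusted p = 0.128) for the irradiated and 0.29 (adjusted p = 0.0935) for the heated group. Heated against freeze-dried did pass in 3 of 27 alternative fits, at a lowest adjusted p of 0.0241. These were replicate number as a block, only the 2 groups, and the fit without fresh 2, where 4.68%, 7.65% and 5.69% of all genes and features passed. No other Sox10 comparison passed in an alternative fit. The low fresh value, 0.19, was that of fresh 2, and the low freeze-dried value, 0.35, that of freeze-dried 2, both among the arrays low in Hox genes. The lowest heated value was that of heated 2. Without all 4 arrays low in Hox genes, Sox10 differed by 0.25 (irradiated) and 0.28 (heated) from the freeze-dried group and by 0.19 (irradiated) and 0.22 (heated) from the fresh group, with adjusted p from 0.226 to 0.913.

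Olig1 and Olig2 are neighbouring basic helix-loop-helix factors, of which Olig2 is required for the lineage to form and Olig1 acts later, in maturation and repair. Olig1 had 3.46, 3.43, 3.24 and 3.15 in the irradiated group and 3.21, 3.27, 3.34 and 3.34 in the heated group. In the freeze-dried group it had 3.18, 2.95, 3.37 and 3.24, and in the fresh group 3.31, 3.06, 3.06 and 3.24. The 4 groups overlapped, and the Olig1 differences ran from 0.02 (freeze-dried against fresh) to 0.16 (irradiated against fresh), with adjusted p from 0.434 to 0.960. Olig2 had 0.20, -0.05, 0.35 and -0.18 in the irradiated group and 0.20, 0.07, 0.11 and 0.11 in the heated group. It had 0.08, -0.90, 0.24 and -0.01 in the freeze-dried group and 0.26, 0.18, 0.10 and 0.16 in the fresh group. One array, freeze-dried 2, stood below all others, and it pulled the freeze-dried mean to -0.15 ± 0.51, against 0.18 ± 0.07 in the fresh group (SD, n = 4 each). The Olig2 difference between these groups, -0.32, had a 95% interval of -0.73 to 0.08 (adjusted p = 0.585).

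Pdgfra, the receptor through which progenitors sense platelet-derived growth factor A, had 2.07, 2.22, 2.11 and 2.17 in the irradiated group and 2.24, 2.29, 2.30 and 2.30 in the heated group. It had 2.03, 1.84, 2.13 and 1.91 in the freeze-dried group and 1.90, 1.75, 2.09 and 2.04 in the fresh group. All 4 heated pups were above every other pup, the irradiated values overlapped both unexposed groups, and the freeze-dried and fresh groups overlapped widely. The heated mean was 2.28 ± 0.03, against 1.98 ± 0.13 in the freeze-dried and 1.94 ± 0.15 in the fresh group (SD, n = 4 each). Pdgfra rose by 0.30 in the heated against the freeze-dried group (SE 0.08, 95% interval 0.14 to 0.47, 1.23-fold, limma adjusted p = 0.0458). Against the fresh group it rose by 0.34 (SE 0.08, 95% interval 0.17 to 0.50, 1.26-fold, limma adjusted p = 0.0336).

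These 2 calls lay close to the threshold. Beside the loss with slide as a block, slide 2 alone, which held 4 heated and 2 fresh pups, gave 0.22 (adjusted p = 0.162). Without the 4 arrays low in Hox genes the differences were 0.25 (adjusted p = 0.279) against the freeze-dried and 0.26 (adjusted p = 0.355) against the fresh group. Of all genes and features, 0% passed on slide 2 alone, and 0.0453% and 0% without the 4 arrays. The losses there were thus not particular to Pdgfra. Leaving out 1 array at a time, the call against the freeze-dried group was lost in 12 of 16 fits, namely without any of the irradiated, any of the heated, freeze-dried 1, 2 or 4, or fresh 4. Over the 16 fits the Pdgfra difference was 0.26 to 0.36 with adjusted p up to 0.129, the highest in the fit without freeze-dried 2. The call against the fresh group was lost in 6 of 16 fits, without fresh 1, fresh 2 or any of the heated, with differences of 0.27 to 0.38 and adjusted p up to 0.0965 over the 16. The difference was above 0 in each of these fits.

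In the irradiated group Pdgfra was at 2.14 ± 0.07, a difference of 0.16 from the freeze-dried (adjusted p = 0.696) and 0.20 from the fresh group (adjusted p = 0.215). Irradiated pups were all below heated pups, with a difference of -0.14 (95% interval -0.31 to 0.03, adjusted p = 0.469), which did not pass. Meningeal fibroblasts make Pdgfra too. The summed signal of the 9 meninges and fibroblast genes, in units of each array's 75th percentile, was 51.6 to 61.2 in irradiated, 49.1 to 55.0 in heated, 54.4 to 64.1 in freeze-dried and 46.4 to 53.5 in fresh brains. In the heated group 8 of these 9 genes were below the freeze-dried group, while 53.7% of all genes and features were above it. Postn, a matrix protein of fibroblasts, was lower by a log2 difference of -0.49 (adjusted p = 0.0335, and 0.777 with slide as a block, where 0% of all genes and features passed). Against the fresh group 3 of the 9 were higher, with a median difference of -0.0088. The part of these cells in the Pdgfra values was not tested.

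Cspg4 encodes the proteoglycan NG2 on the surface of progenitors, and pericytes of brain capillaries make it too. It had -0.22, 0.04, -0.08 and -0.12 in the irradiated group, 0.05, 0.17, 0.03 and 0.10 in the heated group, -0.20, -0.06, -0.20 and 0.01 in the freeze-dried group and -0.17, -0.17, -0.12 and -0.07 in the fresh group. All heated values were above all freeze-dried and all fresh values, whereas the heated and irradiated groups overlapped at irradiated 2. Cspg4 differed by 0.20 between heated and freeze-dried (SE 0.07, adjusted p = 0.0911) and by 0.22 between heated and fresh brains (SE 0.07, adjusted p = 0.0904), and neither passed. Of the 8 pericyte genes, 5 were higher in the heated than in the freeze-dried group (53.7% of all genes and features). In the heated group all 8 were higher than in the fresh group (57.9% of all). Higd1b, a pericyte gene, was the 1 that rose against the fresh group, by 0.43 (adjusted p = 0.0464). The summed pericyte signal was 25.01 to 28.1 in irradiated, 26.6 to 29.2 in heated, 25.8 to 30.0 in freeze-dried and 24.3 to 26.3 in fresh brains, and its part in the Cspg4 values was not tested.

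**Figure D2:**
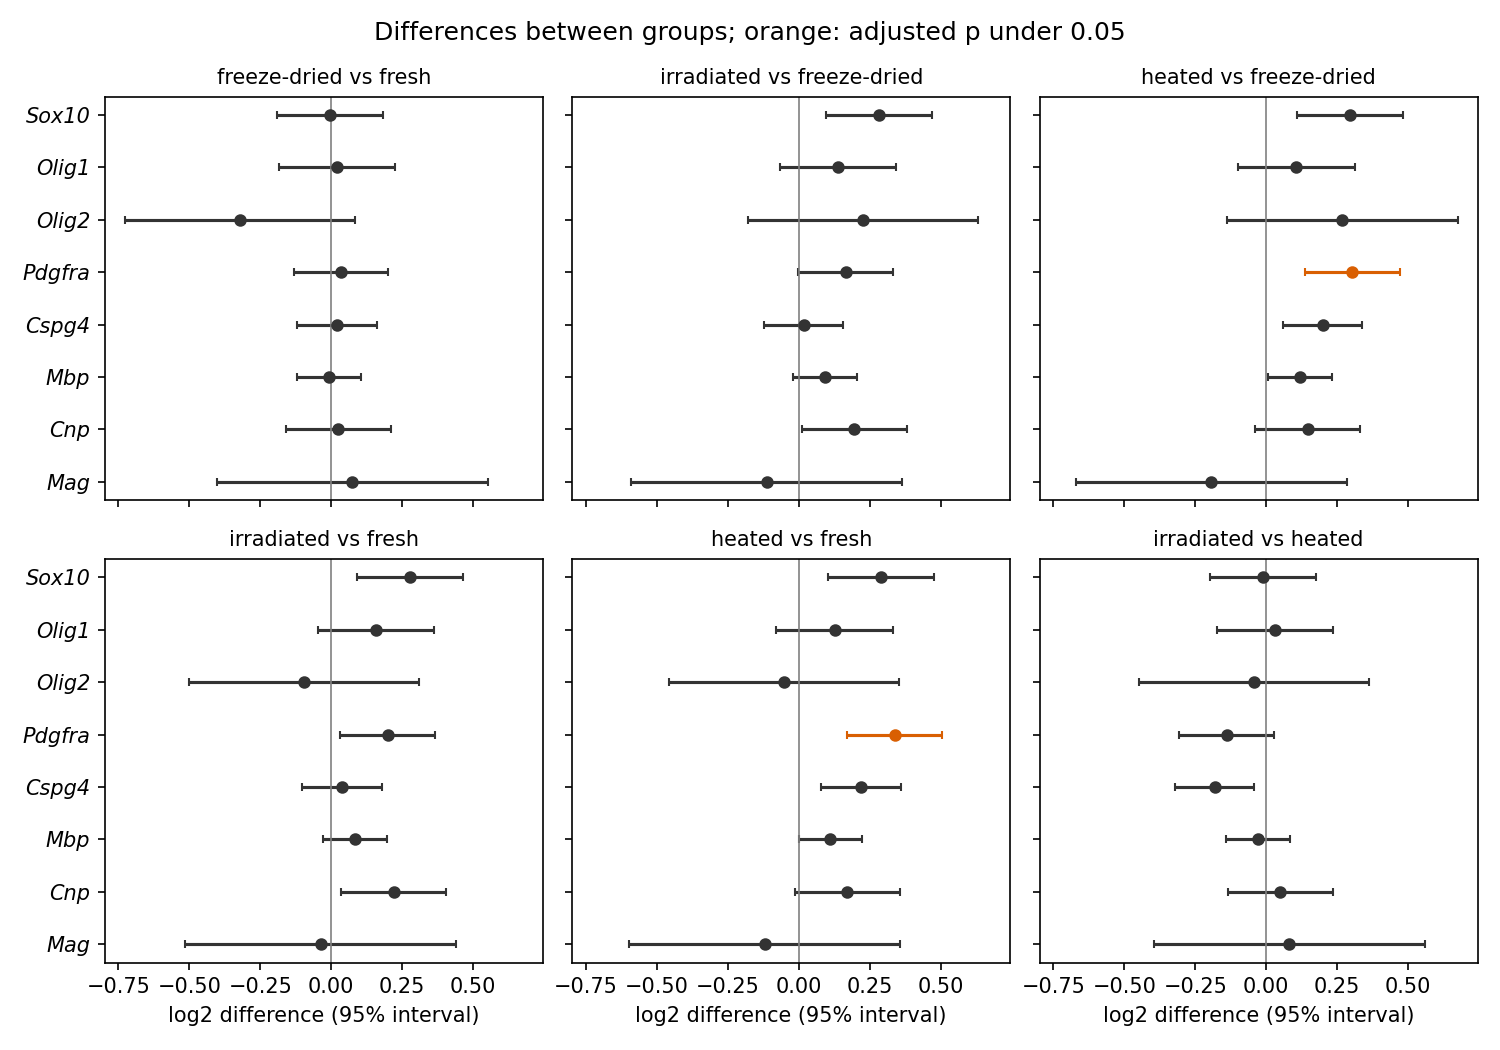
Each panel is 1 comparison, with the log2 difference of each of the 8 genes as a point and its 95% interval as a bar, positive where the first-named group was higher. Orange marks an adjusted p under 0.05, which only Pdgfra reached, at 0.30 in heated against freeze-dried and 0.34 in heated against fresh brains.

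Mbp, the protein that holds the inner faces of the myelin membrane together, had 3 probes. The brightest, annotated to transcript NM_001025245, was nearly level on all arrays, with 2.71, 2.70, 2.75 and 2.78 in the irradiated, 2.69, 2.83, 2.77 and 2.76 in the heated, 2.67, 2.69, 2.65 and 2.56 in the freeze-dried and 2.55, 2.66, 2.65 and 2.74 in the fresh group. All irradiated and all heated values were above all freeze-dried values, and both overlapped the fresh group. The differences were small: 0.09 for irradiated against freeze-dried (adjusted p = 0.710) and 0.12 for heated against freeze-dried (adjusted p = 0.181). The within-group SD of this probe was at the 2.30 percentile of all genes and features tested.

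The other 2 Mbp probes, both annotated to transcript NM_010777, were each well above background on 13 of 16 arrays. Probe A_55_P2889696 had -4.27, -4.25, -3.42 and -4.22 in the irradiated group, -2.97, -5.84, -2.86 and -5.35 in the heated group, -5.08, -5.47, -4.01 and -4.71 in the freeze-dried group and -3.93, -5.61, -4.20 and -3.74 in the fresh group. Probe A_52_P329451 had -4.07, -4.40, -3.94 and -4.35 in the irradiated group, -3.45, -4.95, -3.18 and -5.63 in the heated group, -4.66, -5.03, -3.69 and -4.89 in the freeze-dried group and -4.52, -5.62, -4.14 and -4.63 in the fresh group. On both probes heated 1 and 3 were high, while heated 2, heated 4, freeze-dried 2 and fresh 2, the 4 arrays low in Hox genes, were the lowest of their groups. Tested on their own in a fit of all kept probes, neither differed between any 2 groups (adjusted p from 0.615 to 0.949), with intervals of about 1 log2 unit or more on each side. The Mbp locus also gives the golli transcripts, which neurons and immune cells make as well as oligodendrocytes. Which transcripts each probe reads was not tested. The brightest probe stands for Mbp in the counts, and its values may not be those of the myelin protein's transcripts.

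Cnp encodes a phosphodiesterase of oligodendrocytes that keeps the channels of cytoplasm in myelin open. It had 1.16, 1.23, 1.11 and 0.93 in the irradiated group, 1.14, 0.97, 1.19 and 0.94 in the heated group, 0.96, 0.77, 1.04 and 0.87 in the freeze-dried group and 0.89, 0.72, 1.00 and 0.94 in the fresh group. The groups overlapped in every comparison. The largest Cnp difference was 0.22 between irradiated and fresh brains (SE 0.09, adjusted p = 0.215), and irradiated against freeze-dried gave 0.20 (adjusted p = 0.685).

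Mag, an adhesion protein of the myelin layer that faces the axon, had -1.76, -2.06, -1.89 and -2.10 in the irradiated group, -1.47, -2.44, -1.53 and -2.69 in the heated group, -1.75, -2.01, -1.65 and -1.95 in the freeze-dried group and -1.80, -2.03, -1.82 and -2.0 in the fresh group. The heated pups held both the highest and the lowest Mag values of all 16, with heated 1 and 3 at the top and heated 2 and 4 at the bottom. The mean was -2.03 ± 0.63 in the heated group, against -1.84 ± 0.17 in the freeze-dried and -1.91 ± 0.12 in the fresh group (SD, n = 4 each). The heated against freeze-dried difference was -0.19 (95% interval -0.67 to 0.28, adjusted p = 0.632). Without the 4 arrays low in Hox genes its sign turned, to 0.28 (adjusted p = 0.347), and heated against fresh was 0.37 (adjusted p = 0.334). With each gene taken by its brightest probe, Mag had the largest within-group SD of the 8, 0.34, at the 85.0 percentile of all genes and features tested, where the median was 0.15. The 2 dimmer Mbp probes varied more, with 0.96 and 0.74.

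In each of the 3 groups that held an array low in Hox genes, the lowest Mag values were those of such arrays. The same was true of Cnp and of both dimmer Mbp probes. Over all genes and features this order was found in 4.44% (1174 of 26455 with a value on every array). It held in 2 of the 3 groups for Sox10, Olig1 and Pdgfra, in 1 for Olig2, and in 0 for Cspg4 and the brightest Mbp probe. These are descriptions of single arrays and not a comparison of the study's groups.

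Schwann cells, the myelinating cells of peripheral nerve, also make Sox10, Mbp, Cnp and Mag. All 8 Schwann cell genes reported were well above background on every array, several of which the brain expresses as well, and their summed signal was 12.9 to 14.4 in irradiated, 12.5 to 15.4 in heated, 12.6 to 13.7 in freeze-dried and 11.6 to 14.0 in fresh brains. The part of peripheral nerve and of hindbrain content in the low values was not tested.

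**Figure D3:**
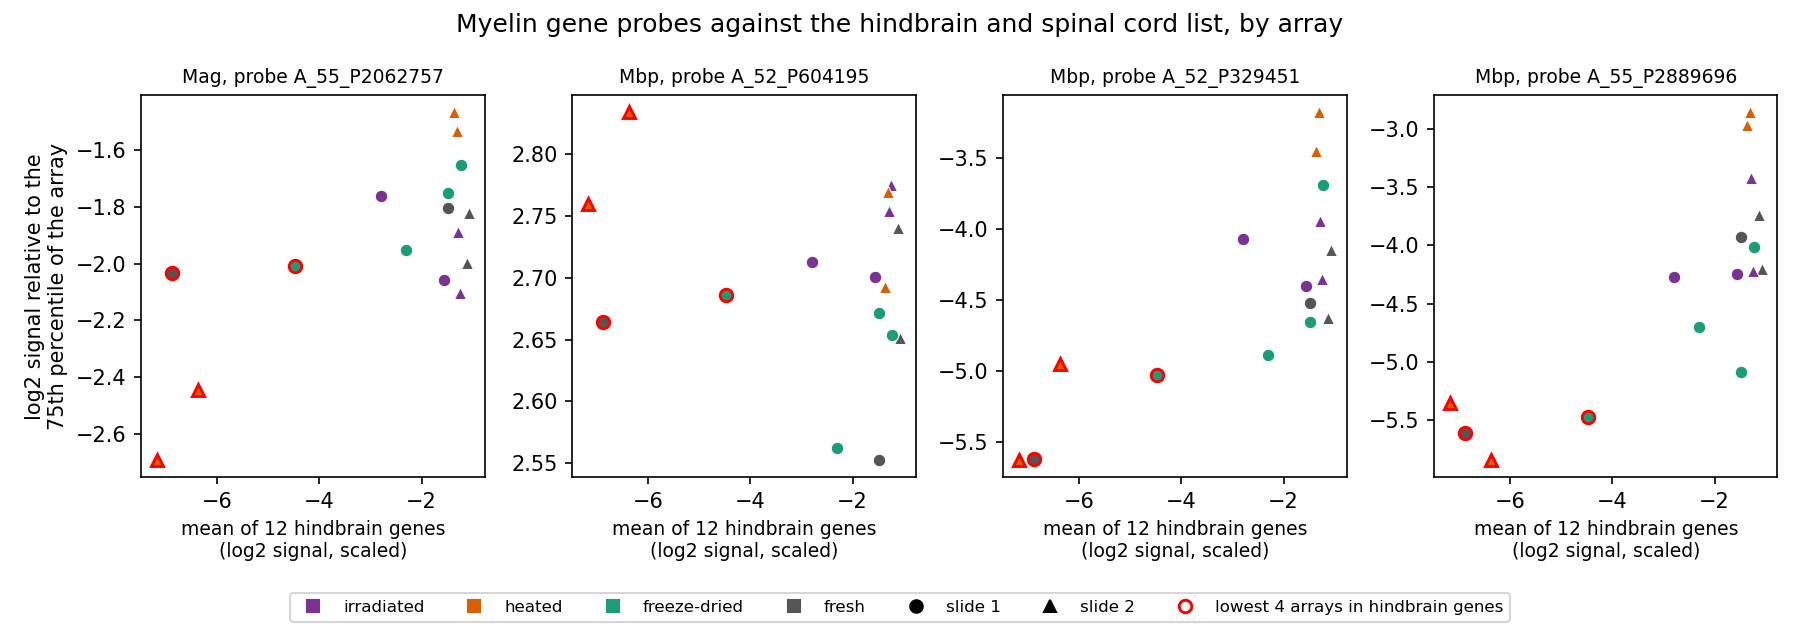
Each panel plots, for 16 arrays, the log2 signal of 1 probe of Mag or Mbp on the vertical axis against the mean of 12 hindbrain and spinal cord genes on the horizontal axis, both relative to the 75th percentile of the array. Heated 2 and 4 (red outline) are lowest in Mag at -2.44 and -2.69, and the brightest Mbp probe lies between 2.55 and 2.83 on every array.

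Counted over the 8 genes, 1 of 8 rose in the heated against the freeze-dried group, where 3.86% of all genes and features changed and 2.50% rose. Heated against fresh also gave 1 of 8, where 2.93% of all changed and 2.39% rose. For irradiated against fresh 0 of 8 passed (1.37% of all), and for irradiated against heated 0 of 8 (1.01% of all). Freeze-dried against fresh and irradiated against freeze-dried each gave 0 of 8 in limma, and 0% of all genes and features passed there; at an unadjusted p under 0.05 0 of 8 were found in freeze-dried against fresh brains (9.93% of all) and 2 of 8, Sox10 and Cnp, in irradiated against freeze-dried brains (7.22% of all).

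Without overlap between the 4 values of each group, 2 of 8 genes were higher in irradiated than in freeze-dried brains (2.78% of all) and 4 of 8 in heated than in freeze-dried brains (11.4% of all). Against the fresh group, 1 of 8 was higher in irradiated brains (5.54% of all) and 3 of 8 in heated brains (7.52% of all). Pdgfra was lower in irradiated than in heated brains without overlap, 1 of 8 genes (6.86% of all). Between freeze-dried and fresh brains 0 of 8 did not overlap, against 4.15% of all. The median of the 8 differences was 0.15 for irradiated and 0.17 for heated brains against the freeze-dried group, where the medians of all genes and features were 0.015 and 0.018. Against the fresh group it was 0.12 for irradiated and 0.15 for heated brains, with all features at 0.032 in both. These comparisons share control samples and their values are not independent.

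The other genes of the lineage, taken from lists of textbook markers, gave 0 or 1 call per list and comparison. Among 11 progenitor genes 1 changed: Ptprz1, a receptor phosphatase that progenitors and astrocytes share, rose in the heated group by 0.23 against freeze-dried (adjusted p = 0.0389) and by 0.22 against fresh brains (adjusted p = 0.0479). Those are 1 of 11 in each comparison and 0 of 11 in the other 4. In heated against freeze-dried brains 2 of 11 passed with the replicate block (4.68% of all genes and features). With only the 2 groups fitted, 2 of 11 passed as well (7.65% of all). The progenitor genes had a median difference of 0.12 in heated against freeze-dried brains, with 7 of 11 higher (53.7% of all). Pcdh15, a cadherin (0.47, adjusted p = 0.0748), and Nkx2-2, a transcription factor of the lineage (0.19, adjusted p = 0.0874), came next and did not pass. Ptprz1 lost both calls with slide as a block (adjusted p = 0.572 and 0.133) and without the 4 arrays low in hindbrain genes (adjusted p = 0.396 and 0.548), and lost the first in 8 of 16 fits that left out 1 array, at adjusted p up to 0.113. Each loss followed the removal of freeze-dried 1, 2 or 3, irradiated 3 or any of the heated arrays. The second was lost in 16 of 16 such fits, at adjusted p up to 0.137. Of all genes and features, 0% (against freeze-dried) and 1.53% (against fresh) passed with slide as a block, and 0.0453% and 0% without the 4 arrays.

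Committed cells, which have left the cell cycle, were followed through 8 genes, of which 0 changed in any of 6 comparisons. Gpr17, a receptor found on newly committed cells, had the smallest p among them in heated against freeze-dried brains. It had 3.42, 2.89, 3.27 and 2.89 in the heated group, against 2.70, 2.12, 2.94 and 2.56 in the freeze-dried group, and these overlapped. The difference was 0.54 (SE 0.17, adjusted p = 0.0871). In alternative fits of the same comparison, 1 of the 8 genes passed with the mean of kept probes (3.8% of all genes and features). With the replicate block 1 of 8 passed too (4.68% of all). Enpp6 and Myrf were too dim to be tested.

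Of the 12 myelin genes reported besides Mbp, Cnp and Mag, 0 changed in any of the 6 comparisons. In irradiated against fresh brains 9 of 12 were higher (58.9% of all genes and features), with a median of 0.19. Aspa, an enzyme of oligodendrocytes that cleaves N-acetylaspartate, had the smallest p, and its 4 irradiated values were above all 4 fresh values. It was at 0.49 (SE 0.12, adjusted p = 0.0595). It passed in 4 of 29 alternative fits, and over the 29 adjusted p ran up to 0.279. It passed with slide as a block (adjusted p = 0.0382) and with the replicate block (adjusted p = 0.0265). The other passes were the deposited value table (0.42, adjusted p = 0.0371) and 1 of 16 fits that left out 1 array. Of all genes and features, 2.46% passed with slide as a block, 1.16% with the replicate block and 3.89% in the value table. Gal3st1, which makes the myelin lipid sulfatide, was at 0.22 (adjusted p = 0.267). Heated against fresh gave 10 of 12 higher (57.9% of all genes and features) with a median of 0.20. The smallest p was that of Pllp, a myelin membrane protein (0.54, adjusted p = 0.113). Mobp and Opalin were too dim to be tested.

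The signals that reach the lineage gave 0 of 7 genes changed in any comparison. With the Y-linked covariate 1 of 7 passed in heated against fresh brains (2.76% of all genes and features). Pdgfa, the ligand of Pdgfra, had 3.29, 3.80, 3.59 and 3.06 in the irradiated group, 3.92, 3.90, 3.86 and 3.40 in the heated group, 3.86, 3.64, 3.76 and 3.71 in the freeze-dried group and 3.40, 3.69, 3.58 and 3.66 in the fresh group. The irradiated values spread the widest and overlapped the heated, the freeze-dried and the fresh group. Igf1, a growth factor that favours survival of the lineage, differed by 0.31 in irradiated (adjusted p = 0.0749) and by 0.28 in heated (adjusted p = 0.0751) against fresh brains. Among 7 inhibitors of differentiation, Hes5, a target of Notch signalling, was the 1 that changed, and it rose by 0.26 in heated against fresh brains (SE 0.06, adjusted p = 0.0434). That call was lost with slide as a block (0.28, adjusted p = 0.0780), without the 4 arrays low in Hox genes (0.31, adjusted p = 0.249) and in 11 of 16 fits that left out 1 array, at adjusted p up to 0.116. It held without fresh 4, freeze-dried 2 or 3, or irradiated 1 or 4. In heated against fresh brains 1.53% of all genes and features passed with slide as a block, and 0% without the 4 arrays. Hes1, another Notch target, was at -0.93 in irradiated against fresh brains (adjusted p = 0.0964). With the mean of kept probes 1 of the 7 inhibitors passed as lower in irradiated than in heated brains (0.857% of all genes and features).

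**Figure D4:**
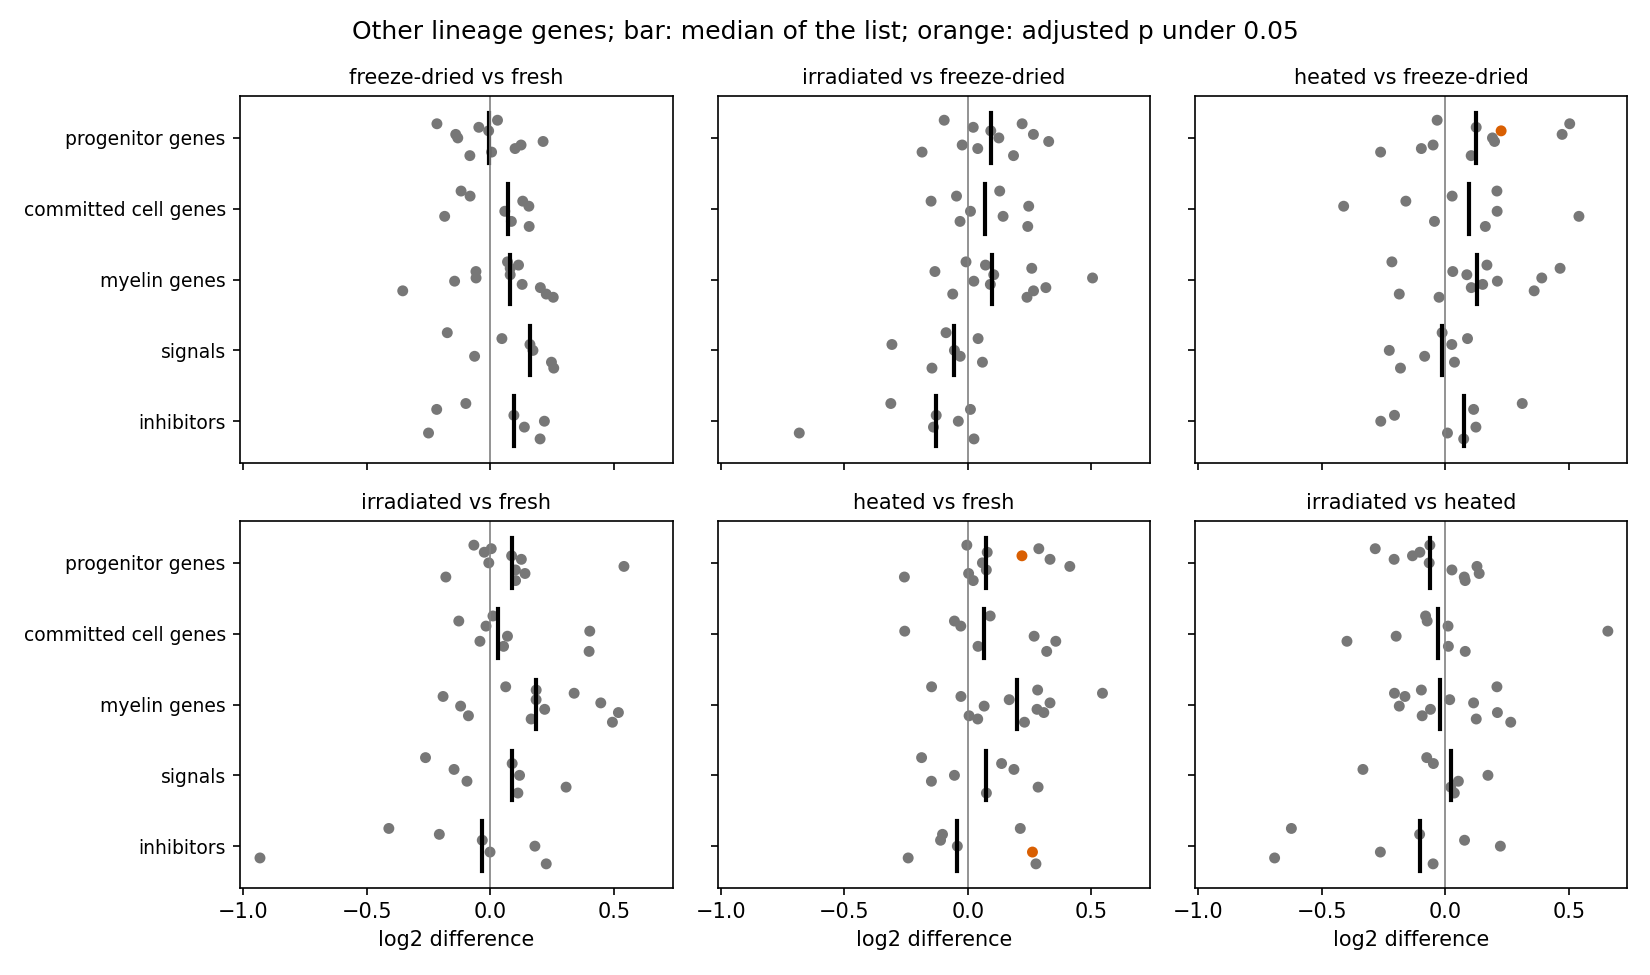
Each panel is 1 comparison and each row 1 list, with the log2 difference of every gene reported as a point and the median as a black bar, positive where the first-named group was higher. Orange marks an adjusted p under 0.05: Ptprz1 among progenitor genes at 0.23 and 0.22 in the heated group, and Hes5 among inhibitors at 0.26 in heated against fresh brains.

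Some markers of other brain cells changed in comparisons with the heated group as well. Of all genes and features, 3.86% changed and 53.7% were higher in heated against freeze-dried brains. In heated against fresh brains these shares were 2.93% and 57.9%, and in irradiated against heated brains 1.01% and 48.9%. Of 10 astrocyte genes, 9 were higher in heated than in freeze-dried brains, and 2 rose: Gfap, the intermediate filament of astrocytes (0.78, adjusted p = 0.0390), and the glutamate transporter Slc1a2 (0.43, adjusted p = 0.0360). Against fresh brains all 10 were higher and Gfap alone rose, by 1.03 (adjusted p = 0.0132). The summed astrocyte signal was 181 to 203 in irradiated, 186 to 230 in heated, 156 to 191 in freeze-dried and 137 to 208 in fresh brains. Of 7 microglia genes, Csf1r, the receptor they need to survive (0.45, adjusted p = 0.0190), and P2ry12, a receptor for nucleotides (0.36, adjusted p = 0.0432), rose in heated against fresh brains. In heated against freeze-dried brains all 8 cell division genes were lower and 4 fell, among them the proliferation marker Mki67 (-0.43, adjusted p = 0.0107). Against fresh brains all 8 were also lower and 2 fell, Cenpa (-0.39, adjusted p = 0.0143) and Mki67 (-0.29, adjusted p = 0.0422). Among 8 Schwann cell genes Foxd3, a transcription factor of neural crest, rose by 0.72 in irradiated against heated brains (adjusted p = 0.0496), and 0 of 8 passed in the 5 other comparisons. In heated against freeze-dried brains the cerebellar transcription factor En2 fell by 0.57 (adjusted p = 0.0360) and the synaptic vesicle protein Syt1 of the 8 neuron genes rose by 0.29 (adjusted p = 0.0261). Syt1 also rose by 0.25 against fresh brains (adjusted p = 0.0459). The mean of 7 cerebellar genes was -1.36 on heated 2 and -1.28 on heated 4, but 0.39 on heated 1 and 0.42 on heated 3. In the other groups it was 0.10 to 0.36. The part of heated 2 and heated 4 in the fall of En2 was not tested. Of 4 melanocyte genes, which mark another cell that makes Sox10, 0 passed, and 2 to 4 of them were well above background per array. Of the 17 calls in these marker lists, 3 held with slide as a block, 0 held without the 4 arrays low in Hox genes, and 2, Gfap against fresh and Mki67 against freeze-dried brains, held whichever array was left out. With slide as a block 0% of all genes and features passed in heated against freeze-dried, 1.53% in heated against fresh and 0.684% in irradiated against heated brains. Without the 4 arrays these shares were 0.0453%, 0% and 0.0718%. The part of these cell types in the Sox10 and Pdgfra values was not tested.

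For each gene, the array profiles most like its own were found by Pearson's r over the 16 arrays among 15972 other genes with a symbol, as a description over arrays that share groups and slides. For Sox10 the nearest were Gpr37l1 (r = 0.906), Shcbp1l (0.897) and Prune2 (0.896), and for Pdgfra Dnah6 (0.944), Rasgrf2 (0.943) and Tap2 (0.940). For Cspg4 they were Lypd6 (0.899), Crybb3 (0.872) and Chia1 (0.862). Without the 4 arrays low in Hox genes these 9 values were between 0.798 and 0.950. For Olig1 the nearest were Tcf25 (0.855), Nxph1 (0.853) and Fam43b (0.846), and for Olig2 Bin1 (0.935), Deaf1 (0.928) and C130046K22Rik (0.922). Over the 12 arrays the Olig2 values were 0.693, 0.724 and 0.556, where freeze-dried 2 was absent. For the brightest Mbp probe they were Oca2 (0.913), Orai3 (0.886) and Sod2 (0.886), and for Cnp Susd5 (0.887), the myelin gene Pllp (0.886) and Me3 (0.881). For Mag, Chrdl2 (0.837) and Insc (0.836) were among the nearest, with 0.282 and 0.602 over the 12 arrays.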

How the data were processed

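RNA of 16 neonatal brains, 4 per group, was hybridized to one-colour Agilent arrays. Images were extracted by the authors (Agilent Feature Extraction, version 11.0.1.1, as the submitters' processing notes state). The deposited scanner files hold background-subtracted fluorescence intensity (processed signal) and quality flags per spot, on a grid annotated to mm9 per the file headers. The deposited value table holds log2 signals. Its column medians in arrays 1 to 4 were 9.341, 9.344, 9.341 and 9.348 (irradiated), 9.341, 9.340, 9.344 and 9.341 (heated), 9.335, 9.342, 9.342 and 9.344 (freeze-dried) and 9.337, 9.343, 9.336 and 9.339 (fresh); its scaling is not given in the sources used here, and it served as an alternative only.

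An array carries 62976 spots, 3671 of them controls. Over the arrays 2043 values of outlier spots were left out, 0 spots were saturated, and spots of a probe were averaged (56605 probes). The log2 processed signal, averaged per probe, was scaled by its 75th percentile over the probes of each array. Over single non-control spots, the 75th percentile of the signal lay between 1043 and 1412, which is not the scaling value. The median coefficient of variation was 5.48% to 13.8%. The number of arrays limits the precision. A probe was kept if 1 or more groups had it well above background on each of their 4 arrays (34261 probes), and the brightest stood for its gene (26477 genes and features, 15993 with a RefSeq symbol). limma 3.58.1 (R 4.3.3, with data.table version 1.17.8 to read files) fitted 4 group means with 12 residual degrees of freedom and was tested on simulated data. Named were the 8 genes, at most the 3 genes of smallest p per list and comparison, and the 3 most alike profiles per gene. Gene members and lists were chosen with earlier results of these data known. A few genes are not reported here and stay out of the list counts. Alternatives were normexp (offset 50), quantile normalization, the authors' table, other probe filters, the mean of kept probes, slide or replicate number as a block, fits within a slide or of 2 groups, a Y-linked covariate, no arrays low in Hox genes, and leave-one-out; a fit of every probe was added after the data were seen. Promoter sequences are from RefSeq (GRCm38.p6).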

Additional observations from a re-analysis of the deposited data

Results flagged for a closer look

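A Dixon test of single arrays within each group of 4 was run 40 times, over the 10 probes of the 8 genes, and picked out 2 arrays, where about 1 in 20 would be picked by chance. Pdgfra was lower in heated 1 (2.24) than in the other heated pups, which lay within 2.29 to 2.30. Heated 1 was still above every pup of the other 3 groups. Mbp probe A_55_P2889696 was higher in irradiated 3 (-3.42) than in the other irradiated pups (-4.27 to -4.22).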

How the results depend on the processing

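Percentages in brackets are the share of all genes and features that passed. Quantile normalization, the stricter probe filter and the mean of kept probes left 1 of 8 genes called in both heated comparisons (4.23%, 4.57% and 3.80% against freeze-dried, 2.58%, 3.24% and 2.59% against fresh). Heated against freeze-dried gave 0 of 8 under normexp (4.86%), the value table (0%), no filter (1.34%), slide as a block (0%), the Y-linked covariate (0.536%) and without the 4 hindbrain-low arrays (0.0453%). It gave 2 of 8, Pdgfra and Sox10, under the replicate block (4.68%) and with only the 2 groups fitted (7.65%). Heated against fresh gave 0 of 8 under normexp (2%), the value table (1.29%), no filter (0.585%), slide as a block (1.53%), only the 2 groups (0.159%), slide 2 alone (0%) and without the 4 arrays (0%). Leaving out 1 array gave 0 to 2 in heated against freeze-dried (0.684% to 5.87%) and 0 to 1 in heated against fresh (0.959% to 4.26%). With the replicate block, 1238 genes and features in place of 1021 changed in heated against freeze-dried brains. Over 24 pairs of pups with the same number, r ran from -0.387 to 0.383, with 10 of them over 0.1. Pairs with different numbers were not set beside them, so whether the number marks a pairing was not tested. Signs turned only for differences that did not pass, and the cause was not tested. Freeze-dried against fresh: normexp gave Mbp 0.0077, Cspg4 -0.024 and Mag -0.012, the value table Mbp 0.0093 and Sox10 0.079, the slide block Olig1 -0.052, Mbp 0.028 and Sox10 0.059, the Y-linked covariate Olig1 -0.023 and Sox10 0.018, the fit without the 4 arrays Cspg4 -0.0072, and slide 1 alone Mbp 0.035 and Sox10 0.062. Irradiated against freeze-dried: the value table gave Cspg4 -0.032, and the fit without the 4 arrays Olig2 -0.025. Irradiated against fresh: normexp gave Cspg4 -0.0092, the Y-linked covariate Mag 0.029, slide 1 Mag 0.0094 and slide 2 Cspg4 -0.0025. Without the 4 arrays Mag was 0.28 (heated against freeze-dried), 0.37 (heated against fresh) and -0.45 (irradiated against heated). Irradiated against heated: normexp gave Mag -0.0067, the value table Olig1 -0.0095, Mbp 0.0083, Sox10 0.063 and Mag -0.0033, the mean of kept probes Mbp 0.10, the slide block Olig1 -0.040, Mbp 0.0083 and Sox10 0.054, and the Y-linked covariate Olig1 -0.0073 and Sox10 0.011. For the same comparison the fit without the 4 arrays gave Mbp 0.0049 and Cnp -0.054, and slide 2 alone Olig1 -0.093, Mbp 0.00090, Cnp -0.037 and Sox10 0.050. Leaving out 1 array, freeze-dried against fresh ranged over -0.10 to 0.046 (Sox10), -0.042 to 0.10 (Olig1), -0.032 to 0.081 (Pdgfra), -0.031 to 0.070 (Cnp), -0.042 to 0.021 (Mbp) and -0.020 to 0.049 (Cspg4). Irradiated against freeze-dried ranged over -0.027 to 0.058 (Cspg4) and -0.025 to 0.36 (Olig2), and irradiated against fresh over -0.0063 to 0.079 (Cspg4) and -0.10 to 0.013 (Mag). Irradiated against heated ranged over -0.016 to 0.089 (Olig1), -0.046 to 0.027 (Sox10), -0.13 to 0.044 (Olig2) and -0.14 to 0.27 (Mag). Heated against fresh ranged over -0.31 to 0.10 and heated against freeze-dried over -0.38 to 0.025 for Mag. Signal near background limits the dimmer Mbp probes.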
